A study of Apis mellifera with 6 samples.

Results

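The hypopharyngeal gland is a paired gland in the head of the worker honeybee (Apis mellifera) that secretes the protein part of brood food, and it is known to grow with pollen feeding and to be most active in bees that nurse larvae. The models described here are transcribed loci that the authors of the data added to the known gene models. They are called author-added loci below. They were chosen by their ID, which starts with Bee_newGene_, and 4 loci on the mitochondrial sequence were left out. This gave 356 loci of 10704 models in the table, which also lists 10344 models with an annotation ID. An unannotated locus is a place where sequenced RNA fragments assemble into a transcript that the gene annotation does not list. Such loci can be long noncoding RNAs, missed protein-coding genes, or unlisted exons and ends of known genes, and the files do not say which of these a locus is.

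RNA came from worker glands of 6 colonies, 1 library each, in 3 groups of 2. Brood colonies were fed honey and rape pollen and kept a laying queen, Pollen colonies got the same food but their queen was caged, and Honey colonies received only honey, also under a caged queen. How many bees went into a library is not given. Per the sample labels the bees were 13 and 14 days old in Brood, 9 and 10 in Pollen, and 11 and 12 in Honey, although the series text states 9 days throughout, so group and age cannot be told apart. The reference table of 12398 genes held 0 of the 10704 IDs, so no locus or neighbour has a name here and the tissue could not be checked by marker genes. Library totals were 3459632 and 3525248 fragments in Brood 1 and 2, 4153354 and 3546705 in Pollen, and 4120794 and 2764870 in Honey. A few very abundant models took unequal shares of these totals, so levels are given as CPM, the usual count per library size, with the totals scaled by TMM (trimmed mean of M-values). The scaled totals were 2184909 and 2421012 in Brood, 3304948 and 3638997 in Pollen, and 7590801 and 4194358 in Honey. In whole glands, fewer cells of a type and less RNA per cell cannot be told apart.

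The author-added loci were spread over the genome, and most were shorter than the median annotated model. Their length, which counts transcript bases, was 184 to 8144 bases with a median of 1150, against a median of 1491 for the annotated models. Their span on the genome had a median of 2492 bases. Length was below span in all 356, with a median of 61.6% of the span, whereas length equalled span in 642 of the 10344 annotated models. There were 165 loci on the plus strand and 191 on the minus strand. All 16 linkage groups held some, with 44 on linkage group 1 and 3 on linkage group 9, and 26 loci (7.30%) lay on unplaced scaffolds, against 11.0% of the annotated models. The longest span was 356114 bases, in Bee_newGene_1497 on linkage group 12 at 3493643 to 3849756, for a length of 766 bases. Coordinates are those deposited. No genome with the same sequence versions was available here, so no sequence of a locus is shown.

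Many of the loci lay beside or within an annotated model. Of the 356, 61 overlapped a listed model, 123 lay 1 to 1000 bases from one, 119 lay over 1000 and up to 10000 bases away, and 46 lay farther. The remaining 7 were on scaffolds with no listed model. Thus 51.7% lay within 1000 bases, and the median distance was 911 bases among the 349 loci with a listed model on their sequence. Of the 61 that overlapped, 35 were on the same strand as the model and 26 on the opposite strand, and 41 lay wholly inside it. Of the 123 within 1000 bases, 57 were on the same strand, 30 of them past the 3′ end of the neighbour and 27 before its start. The table lists 10344 annotated models with numbers up to 13578, so a nearer model may not be listed. The loci farthest from any listed model were Bee_newGene_69 and Bee_newGene_68 on linkage group 1, at 169687 and 136661 bases, and Bee_newGene_980 on linkage group 7, at 166099 bases.

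Nearly all loci had fragments in the Honey and Pollen libraries, and fewer had any in Brood. There were 300 and 303 loci with a fragment in Brood 1 and 2, 328 and 342 in Pollen, and 354 and 341 in Honey. Over the groups this was 84.7% ± 0.596 in Brood, 94.1% ± 2.78 in Pollen and 97.6% ± 2.58 in Honey (SD, n = 2 each). The annotated models went the same way, at 74.5% ± 1.63, 79.6% ± 1.34 and 81.4% ± 1.85. The TMM-scaled totals were lowest in Brood too, and the part of depth in these counts was not tested. At 0 in both libraries of a group were 37 loci in Brood (10.4%), 2 in Pollen and 1 in Honey. Among the 9135 annotated models with a fragment in some library, 10.9% were at 0 in both libraries of Brood, 5.42% of Pollen and 3.61% of Honey. For the author-added loci the shares in Pollen and Honey were 0.562% and 0.281%.

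The loci held a small share of all fragments counted over the models, and that share was lowest in Brood. Their summed fragments were 0.391% and 0.377% of the library in Brood 1 and 2, 0.737% and 0.950% in Pollen, and 1.86% and 1.43% in Honey. The groups did not overlap, but an exact permutation test of 2 against 2 libraries cannot reach a two-sided p under 0.333. On the TMM-scaled CPM scale the sums over the author-added loci were 5835 ± 496 CPM in Brood, 9265 ± 3.64 in Pollen and 9775 ± 446 in Honey (SD, n = 2 each). Both Brood libraries thus lay below all others and both Pollen libraries just below those of Honey. The 10 loci with most fragments in a library held 46.0% to 54.3% of the loci's fragments there. Per kilobase of length, the median level was 4.06 CPM for the author-added loci and 3.17 CPM for the annotated models, many of which had no fragments. Among the models that passed the filter described below it was 5.79 CPM for the author-added loci and 7.70 CPM for the annotated models.

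The 8 loci with the highest mean CPM differed in their order of groups, and 6 of them were called lower in Brood than in Pollen, Honey or both. Bee_newGene_1825, on the minus strand of linkage group 16 at 1942380 to 1947245, was the most abundant. It had 2208 and 1868 fragments in Brood, 2970 and 3321 in Pollen, and 9705 and 3924 in Honey. As CPM this was 891 ± 169 in Brood, 906 ± 9.87 in Pollen and 1107 ± 243 in Honey (SD, n = 2 each), with overlapping groups and no call in any comparison. It lies inside the model gene11803 on the opposite strand, which had 1284 CPM on average. Whether the counting used strand is not stated, so fragments of the locus and of gene11803 cannot be told apart. With each library's trend with model length removed, it was called higher in Brood than in Pollen, with a log2 change of 1.09 (edgeR adjusted p = 0.0353). In that setting it was also called higher in Brood than in Honey (log2 change 0.98, edgeR adjusted p = 0.0412). With library totals it was called lower instead, in Brood than in Honey (log2 change -1.69, edgeR adjusted p = 0.000521) and in Pollen than in Honey (log2 change -1.19, edgeR adjusted p = 0.0173). Bee_newGene_1095, on the minus strand of linkage group 8 at 6459000 to 6478433, had 1824 and 1608 fragments in Brood, 3193 and 4618 in Pollen, and 4940 and 3256 in Honey. Its CPM were highest in Pollen, overlapped between Brood and Honey, and were not called different in any comparison. The log2 change for Brood vs Honey was 0.07, but it was -1.27 with library totals and 1.62 with the length trend removed (edgeR adjusted p = 0.00336 and 0.00399). Its neighbour gene6637, on the same strand 193 bases away, had a log2 change of -2.51 for Brood vs Pollen (SE 0.35; edgeR adjusted p = 0.000283).

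**Figure D1:**
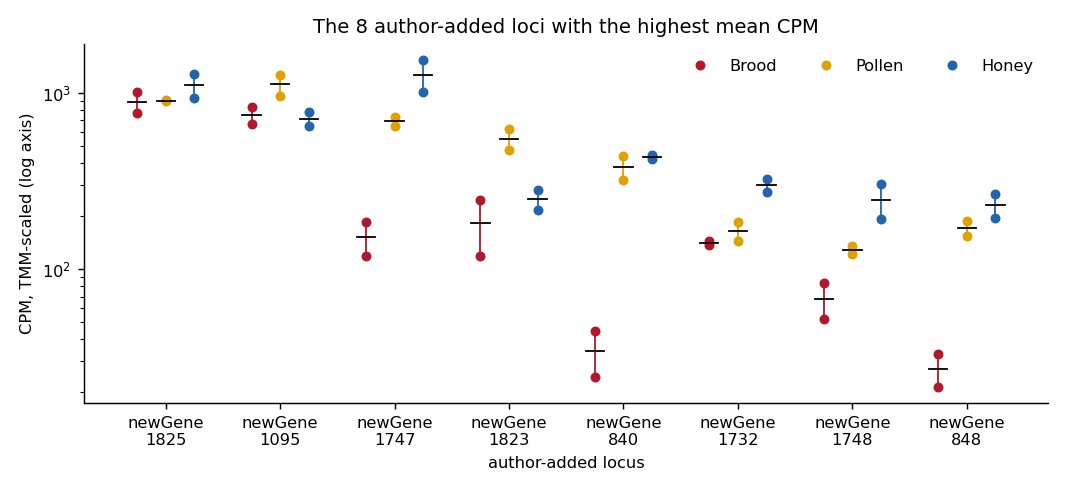
TMM-scaled CPM (log axis) of the 8 author-added loci (x axis) with the highest mean level, 2 libraries per group as points with their mean as a bar. Bee_newGene_1747, Bee_newGene_840 and Bee_newGene_848 had lower CPM in both Brood libraries than in all Pollen and Honey libraries, while the groups of Bee_newGene_1825 overlapped.

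The other 6 abundant loci had such calls. Bee_newGene_1747, on the minus strand of linkage group 15 at 3596355 to 3605108, is the longest locus, with 8144 bases. It had 405 and 287 fragments in Brood, 2143 and 2674 in Pollen, and 11635 and 4228 in Honey. As CPM it stood at 152 ± 47.2 in Brood, 692 ± 61.1 in Pollen and 1270 ± 371 in Honey (SD, n = 2 each), and no groups overlapped. The log2 change was -2.19 for Brood vs Pollen (SE 0.39; edgeR adjusted p = 0.00105) and -3.06 for Brood vs Honey (SE 0.40; edgeR adjusted p = 8.63e-05). With the length trend removed, the Brood vs Pollen call was lost (log2 change -0.60, edgeR adjusted p = 0.230). Bee_newGene_840, on the plus strand of linkage group 6 at 8514055 to 8604000, lies 10294 bases from the nearest listed model. It had 97 and 59 fragments in Brood, 1054 and 1594 in Pollen, and 3202 and 1868 in Honey. Brood lay far below the other groups, which overlapped. It was 11.0-fold lower in Brood than in Pollen (log2 change -3.46, SE 0.39; edgeR adjusted p = 0.000121) and 12.6-fold lower than in Honey. Bee_newGene_848, on linkage group 6 at 17145000 to 17150180, lies 120 bases past the 3′ end of gene5583 on the same strand. It had 72 and 52 fragments in Brood, 617 and 560 in Pollen, and 2034 and 816 in Honey, and its log2 change for Brood vs Pollen was -2.65 (SE 0.35; edgeR adjusted p = 0.000236). That of gene5583 was -1.94 (SE 0.35). Bee_newGene_1823, on the minus strand of linkage group 16 at 8483 to 32066, had 537 and 288 fragments in Brood, 2052 and 1731 in Pollen, and 1648 and 1188 in Honey. Pollen stood above both other groups, which overlapped, and the log2 change for Brood vs Pollen was -1.59 (SE 0.39; edgeR adjusted p = 0.00618), or -2.20 without Brood 1 and -1.16 without Brood 2 (edgeR adjusted p = 0.0511). Bee_newGene_1732, on the plus strand of linkage group 15 at 5148397 to 5150438, had the highest level per kilobase of all author-added loci, at 249 CPM. It had 314 and 331 fragments in Brood, 476 and 674 in Pollen, and 2462 and 1158 in Honey. It was 2.14-fold lower in Brood than in Honey (edgeR adjusted p = 0.00900), a call lost without Honey 1 (edgeR adjusted p = 0.0582).

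The contrast of Brood with Pollen concerns the laying queen, since both groups had pollen. More author-added loci were lower than higher in Brood. Of the 356, 289 passed the filter on low counts. With edgeR's quasi-likelihood test and an adjusted p under 0.05, 36 of these were higher and 107 lower in Brood, which is 12.5% and 37.0%. Over all 6943 models tested, 48.4% were called, 22.4% higher and 26.0% lower. The median log2 change was -0.89 among the 289 loci and 0.04 among the 6650 annotated models tested. Of these loci, 13 were at 0 in both libraries of a group. With those set to the bound of 3 fragments per library, except 6 left out because both groups lay at or under that floor, the median was -0.84. Of the calls, 74 lower and 13 higher loci were past 4-fold. Since a locus can pass the filter through 1 group alone, these counts describe the loci that passed. The loci were also added on the basis of transcripts, and which libraries served to find them is unknown. Finding a locus takes fragments, and the TMM-scaled totals were lowest in Brood. How far this sets the excess of lower loci and the gap to the annotated models, here and in Brood vs Honey, was not tested. Without a filter, all 356 entered and 42 were higher and 120 lower. With library totals, which move the median of the annotated models to -0.42, 18 loci were higher and 124 lower.

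**Figure D2:**
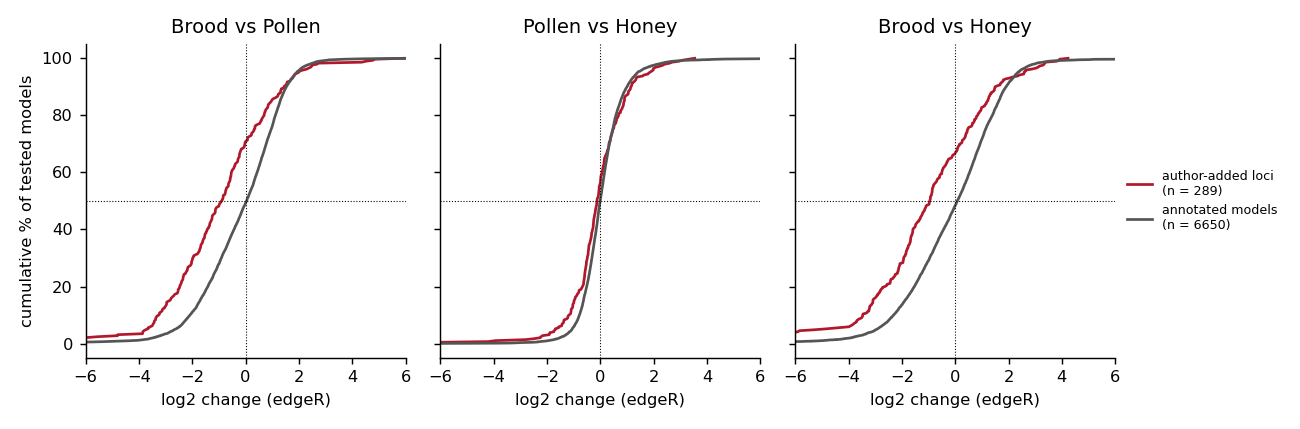
Cumulative percent of tested models (y axis) by log2 change (x axis) in the 3 comparisons, for 289 author-added loci and 6650 annotated models. The curve of the author-added loci lies to the left in Brood vs Pollen and Brood vs Honey, with medians of -0.89 and -0.95, and is close to that of the annotated models in Pollen vs Honey.

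Falls are given for called loci with no overlap and 50 or more fragments in both Pollen libraries. Bee_newGene_1637, on the plus strand of linkage group 14 at 3628121 to 3634989, had 11 and 11 fragments in Brood, 184 and 175 in Pollen, and 1167 and 481 in Honey. Each group lay above the one before, and Brood was 10.8-fold below Pollen (log2 change -3.43, SE 0.36; edgeR adjusted p = 8.93e-05). It lies inside gene10483 on the same strand, which had 19 and 24 fragments in Brood, 89 and 178 in Pollen, and 846 and 531 in Honey. Bee_newGene_1737, on linkage group 15 at 7439145 to 7441051, had 8 and 13 fragments in Brood, 180 and 158 in Pollen, and 640 and 255 in Honey. It was 10.7-fold lower in Brood than in Pollen (edgeR adjusted p = 0.000101), and it ends 52 bases from gene11475 on the opposite strand, whose log2 change was -3.79 (SE 0.41). Bee_newGene_326, on linkage group 2, was 11.9-fold lower (edgeR adjusted p = 0.000272). Bee_newGene_477, on linkage group 3 at 6060954 to 6067417, had 1 and 7 fragments in Brood and 64 and 72 in Pollen, with a log2 change of -3.48 that was -2.74 without Brood 1 and -5.34 without Brood 2.

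Fewer loci rose. Those with the largest fitted rises had few fragments outside Brood. Bee_newGene_850 on linkage group 6 had 42 and 51 fragments in Brood, 2 and 0 in Pollen, and 6 and 6 in Honey (edgeR adjusted p = 0.000134 for Brood vs Pollen). Bee_newGene_611 on linkage group 4 had 25 and 24 fragments in Brood, 2 and 1 in Pollen, and 5 and 3 in Honey (edgeR adjusted p = 0.000349). In both, every Brood library stood above all others. Among called loci with 50 or more fragments in both Brood libraries and no overlap with Pollen, Bee_newGene_1746 rose most. This locus, on the minus strand of linkage group 15 at 2613975 to 2616587, had 67 and 71 fragments in Brood, 24 and 30 in Pollen, and 37 and 30 in Honey. As CPM this was 30.0 ± 0.946 in Brood, 7.75 ± 0.695 in Pollen and 6.01 ± 1.61 in Honey (SD, n = 2 each), so both Brood libraries stood apart from the rest. Its log2 change was 1.95 for Brood vs Pollen (SE 0.34; edgeR adjusted p = 0.00101). Bee_newGene_1194, on linkage group 9 at 5184127 to 5187553, had 324 and 389 fragments in Brood, 178 and 123 in Pollen, and 324 and 203 in Honey. It was 3.53-fold higher in Brood than in Pollen (edgeR adjusted p = 0.000902). Bee_newGene_1949 on an unplaced scaffold, Bee_newGene_1393 on linkage group 11 and Bee_newGene_502 on linkage group 3 had log2 changes of 1.78, 1.54 and 1.45. The call of Bee_newGene_502 was lost with library totals (edgeR adjusted p = 0.0591), and those of Bee_newGene_1949 and Bee_newGene_502 were lost with the length trend removed (edgeR adjusted p = 0.0885 and 0.446).

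The contrast of Pollen with Honey concerns pollen, since both groups had caged queens. Few author-added loci differed. Of the 289 tested, 14 were higher and 9 lower in Pollen (4.84% and 3.11%), and over all models tested 6.16% were called, 4.32% higher and 1.84% lower. The median log2 change was -0.12 among the loci and -0.01 among the annotated models. The count of 23 became 7 without Honey 1 and 11 without Honey 2. With library totals, which move the median of the annotated models to -0.90, 7 loci were higher and 91 lower, and with the length trend removed 10 were higher and 10 lower.

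Of the 5 loci with the largest rise among those called with no overlap and 50 or more fragments in both Pollen libraries, 3 had their lowest mean level in Honey and 2 in Brood. Bee_newGene_1267, on the minus strand of linkage group 10 at 2579575 to 2583235 and 85047 bases from a listed model, had 19 and 16 fragments in Brood, 108 and 103 in Pollen, and 22 and 22 in Honey. Its CPM were 7.65 ± 1.48 in Brood, 30.5 ± 3.09 in Pollen and 4.07 ± 1.66 in Honey (SD, n = 2 each), and both Pollen libraries exceeded the other 4. The log2 change for Pollen vs Honey was 2.95 (SE 0.37; edgeR adjusted p = 0.000640). Bee_newGene_60, on linkage group 1 at 13177891 to 13190961, had 30 and 21 fragments in Brood, 183 and 185 in Pollen, and 77 and 30 in Honey. It was 6.03-fold higher in Pollen than in Honey (edgeR adjusted p = 0.000621) and 4.75-fold lower in Brood than in Pollen (edgeR adjusted p = 0.000417). Bee_newGene_332, on linkage group 2 at 14380466 to 14385587, had 174 and 165 fragments in Brood, 453 and 473 in Pollen, and 222 and 97 in Honey. Its log2 change was 2.34 for Pollen vs Honey (edgeR adjusted p = 0.000621). Bee_newGene_1281 on linkage group 10 had a log2 change of 2.09, whose call was lost without Honey 1 (edgeR adjusted p = 0.0501). That of Bee_newGene_327 was 1.38 and was lost without Pollen 2 and without Honey 1 (edgeR adjusted p = 0.137 and 0.304).

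Among loci lower in Pollen, 4 had 50 or more fragments in both Honey libraries with no overlap. Bee_newGene_329, on linkage group 2 at 12839180 to 12862969, had 36 and 37 fragments in Brood, 82 and 104 in Pollen, and 443 and 423 in Honey. It partly overlaps gene2243 on the same strand, and the log2 changes for Pollen vs Honey were -1.57 for the locus (SE 0.31; edgeR adjusted p = 0.0107) and -1.47 for gene2243 (SE 0.37). The other 3 were Bee_newGene_1273, Bee_newGene_1503 and Bee_newGene_1637, at -1.56, -1.38 and -1.37. Each of the 4 calls was lost when some single library was left out. For Bee_newGene_329 the log2 change was -1.48 without Pollen 1 and -1.13 without Honey 2 (edgeR adjusted p = 0.0567 and 0.118), and for Bee_newGene_1637 it was -1.27 without Pollen 2 and -1.15 without Honey 1 (edgeR adjusted p = 0.0862 and 0.135). For Bee_newGene_1273 the call was lost without Pollen 1, Pollen 2 or Honey 2, and for Bee_newGene_1503 without any one of the Pollen or Honey libraries.

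Brood and Honey differed in both food and queen, and again more loci were lower. The limit from how the loci were found, given above for Brood vs Pollen, applies here too. Of 289 tested, 47 were higher and 122 lower in Brood (16.3% and 42.2%), and over all models tested 57.2% were called, 28.4% higher and 28.8% lower. The median log2 change was -0.95 among the loci and 0.08 among the annotated models, and it was -0.93 with loci at 0 set to their bound. With library totals 14 were higher and 198 lower, where the annotated models had a median of -1.27. Bee_newGene_1503, on the plus strand of linkage group 12 at 9078506 to 9081428, had 0 and 0 fragments in Brood, 26 and 34 in Pollen, and 186 and 85 in Honey. Against the floor of 3 fragments per library it was at least 17.1-fold lower in Brood than in Honey and at least 6.59-fold lower than in Pollen. It shares its first base with gene9820 on the same strand, which had 0 and 3 fragments in Brood, 62 and 92 in Pollen, and 422 and 192 in Honey. Bee_newGene_1637 was 27.9-fold lower in Brood than in Honey (log2 change -4.80, SE 0.36; edgeR adjusted p = 6.96e-06), and Bee_newGene_1737 was 15.9-fold lower (edgeR adjusted p = 1.50e-05). Bee_newGene_36, inside gene1177 on the same strand of linkage group 1, had 1 and 2 fragments in Brood, 4 and 46 in Pollen, and 73 and 186 in Honey, with a log2 change of -5.28 that was -3.83 without Honey 2. Bee_newGene_858 on linkage group 6 had 6 and 0 fragments in Brood and 137 and 95 in Honey, with a log2 change of -3.91 that was -2.88 without Brood 2.

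Among called loci with no overlap and 50 or more fragments in both Brood libraries, the 5 with the largest rise against Honey included 4 shorter than 766 bases. Larger fitted rises were found in loci with fewer fragments, among them Bee_newGene_850 and Bee_newGene_611. Bee_newGene_1949, on an unplaced scaffold at 31616 to 34537 with a length of 560 bases, had 68 and 52 fragments in Brood, 26 and 27 in Pollen, and 25 and 11 in Honey. It partly overlaps gene12643 on the opposite strand. It was 8.64-fold higher in Brood than in Honey (log2 change 3.11, SE 0.37; edgeR adjusted p = 5.38e-05). Bee_newGene_502, with a length of 318 bases on linkage group 3 at 12022663 to 12023195, had 119 and 95 fragments in Brood, 59 and 60 in Pollen, and 67 and 28 in Honey. On the CPM scale every Brood library exceeded every Pollen library, and every Pollen library every Honey library, and the locus was 5.94-fold higher in Brood than in Honey (edgeR adjusted p = 6.45e-05). Bee_newGene_1395, with 581 bases on linkage group 11 at 4681525 to 4682880, was the most abundant of these. It had 509 and 412 fragments in Brood, 384 and 209 in Pollen, and 224 and 197 in Honey, and was 5.29-fold higher in Brood than in Honey (edgeR adjusted p = 0.000356). The other 2 were Bee_newGene_1746, described above, and Bee_newGene_1729, with 386 bases on linkage group 15 at 2623199 to 2623993. Bee_newGene_1729 had 87 and 93 fragments in Brood, 69 and 37 in Pollen, and 72 and 50 in Honey. Its log2 change for Brood vs Honey was 1.88 (SE 0.36; edgeR adjusted p = 0.000873), and the call was lost with library totals and with the length trend removed (edgeR adjusted p = 0.251 and 0.447).

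The order of the 3 groups was counted over the loci whose libraries did not overlap on the CPM scale. Honey above Pollen above Brood was found in 50 of 289 loci (17.3%), and in 13.6% of all models tested. The reverse order, Brood above Pollen above Honey, was found in 14 loci (4.84%), and in 12.7% of all models tested. Pollen above Honey above Brood held in 18 loci, against 4.26% of all models, and Brood above Honey above Pollen in 12, against 4.77%. Pollen above Brood above Honey held in 6 loci, and Honey above Brood above Pollen in 2, where all models gave 1.04% and 0.677%.

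Longer loci had lower log2 changes in Brood, and in each length class their median lay below that of the annotated models for Brood vs Pollen and Brood vs Honey. The 289 loci were split at their length quartiles of 766, 1366 and 2258 bases. From the shortest to the longest class, the median log2 change for Brood vs Pollen was 0.70, -0.51, -1.48 and -1.99 among author-added loci, against 1.10, 0.78, 0.22 and -0.95 among annotated models. For Brood vs Honey it was 0.64, -0.65, -1.51 and -1.72, against 1.59, 0.97, 0.29 and -1.04. In the shortest class 24 of 73 loci were called higher and 7 lower in Brood vs Pollen, and in the longest class 2 of 72 were higher and 45 lower. Annotated models showed the same trend, with 49.9% higher and 3.33% lower in the shortest class and 6.84% higher and 46.8% lower in the longest. For Pollen vs Honey the class medians were -0.02, -0.17, -0.14 and -0.18 among author-added loci. Among annotated models they fell with length, at 0.49, 0.17, -0.02 and -0.18, so the loci lay lowest against them in the shortest class. Across loci, Spearman's correlation of length with the log2 change was -0.41 in Brood vs Pollen, -0.07 in Pollen vs Honey and -0.39 in Brood vs Honey (n = 289), and all points share the same 6 libraries. With each library's length trend removed, 14 loci were higher and 103 lower in Brood vs Pollen, and 22 higher and 124 lower in Brood vs Honey, with medians of -1.05 and -1.10. Level made less difference to the medians but not to the calls. From the lowest to the highest quartile of mean CPM, 16.4%, 33.3%, 45.8% and 52.8% of loci were called lower in Brood vs Pollen. Called higher were 8.22%, 15.3%, 18.1% and 8.33%. Among annotated models 14.5%, 13.7%, 20.7% and 36.9% were lower, and 10.8%, 22.0%, 28.5% and 22.7% higher. From the lowest to the highest quartile of mean CPM, the median for Brood vs Pollen was -0.89, -0.84, -0.94 and -0.92 among author-added loci, against -0.26, 0.37, 0.29 and -0.27 among annotated models.

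**Figure D3:**
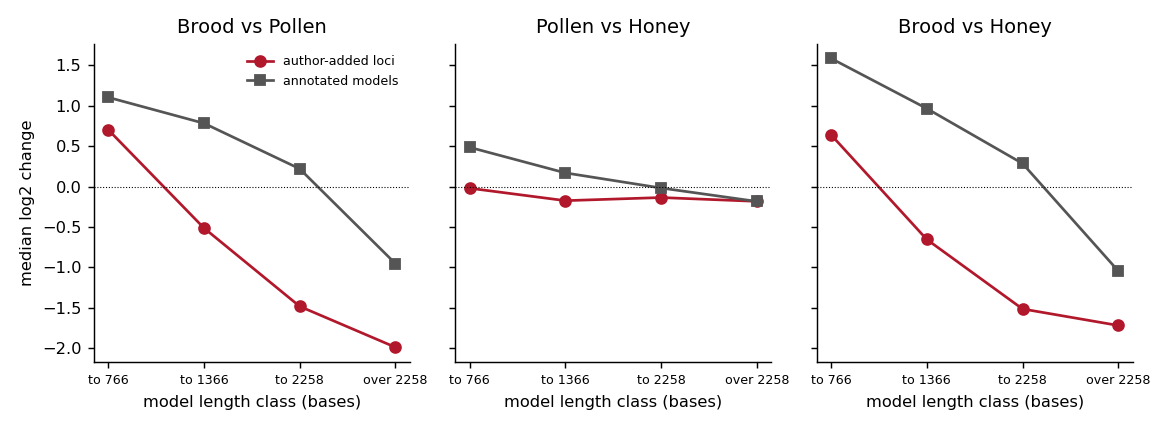
Median log2 change (y axis) of author-added loci and annotated models in 4 classes of model length in bases (x axis), with class limits at the length quartiles of the 289 tested loci. In Brood vs Pollen and Brood vs Honey both lines fall with length and the author-added loci lie lower in each class.

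Calls in Brood vs Pollen were then counted by position, where all models tested gave 22.4% higher and 26.0% lower. Among the 238 tested loci that overlapped no listed model, 32 were higher and 88 lower in Brood vs Pollen, with a median log2 change of -0.86. Among the 38 that lay over 10000 bases from one, 5 were higher and 15 lower, with a median of -1.17, and the 289 loci had 12.5% higher and 37.0% lower. The 20 tested loci on unplaced scaffolds had 4 higher and 4 lower, with a median of -0.16. Of the 3 most distant loci, Bee_newGene_69 had 0 to 12 fragments in any library and was not tested, and Bee_newGene_68 had 0 and 0 fragments in Brood, 4 and 12 in Pollen, and 11 and 15 in Honey. Bee_newGene_980 was higher in Brood, with 114 and 138 fragments in Brood, 108 and 104 in Pollen, and 260 and 108 in Honey. Its log2 change for Brood vs Pollen was 0.83 (SE 0.28; edgeR adjusted p = 0.0264). It turned to -0.12 with the length trend removed, and its call was lost without Brood 2, Pollen 1 or Pollen 2 (edgeR adjusted p = 0.0754, 0.0769 and 0.151).

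The change of a locus was set beside that of its nearest listed model where both were tested, which was possible for 225 loci. By Pearson's correlation the likeness was closest for loci that overlapped a model on the same strand. Across these 28 loci, Pearson's correlation of the log2 changes was 0.76 in Brood vs Honey, 0.58 in Brood vs Pollen and 0.78 in Pollen vs Honey. Spearman's correlation for the same loci was 0.70, 0.46 and 0.76. Across 44 loci up to 1000 bases away on the same strand Pearson's correlation was 0.51, 0.40 and 0.14 in the same order. Across 45 at this distance on the opposite strand it was 0.23, 0.37 and -0.00. Spearman's correlation in Brood vs Pollen was 0.44 on the same strand and 0.45 on the opposite strand at this distance. Over 1000 bases away, Pearson's correlation was 0.50, -0.12 and 0.33 across 38 loci on the same strand. On the opposite strand it was 0.19, 0.30 and 0.01 across 47. Across the 23 that overlapped a model on the opposite strand it was 0.15, 0.27 and -0.05. Across all 225 Pearson's correlation was 0.39, 0.32 and 0.24. These are descriptions across loci that share libraries and lengths, and overlapping models may share fragments. Of the 15 loci overlapping on the same strand and called lower in Brood vs Honey, 13 had a neighbour called lower and 0 a neighbour called higher. Of the 9 overlapping on the opposite strand and called lower, 8 had a neighbour called lower and 0 a neighbour called higher. Beyond 1000 bases, 15 of 37 loci called lower had a neighbour called lower and 10 a neighbour called higher. Of all models tested, 28.8% were called lower and 28.4% higher. The neighbours overlapping on the same and on the opposite strand were themselves low, with median log2 changes of -1.75 and -1.88. For neighbours beyond 1000 bases the median was -0.08, and the part of this in these counts was not tested. Bee_newGene_1747 is an example, since gene11175, at 1020 bases on the opposite strand, had a log2 change of 2.33 for Brood vs Honey (edgeR adjusted p = 0.00465). That model had few fragments, with 12 and 17 in Brood, 4 and 7 in Pollen, and 12 and 3 in Honey.

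**Figure D4:**
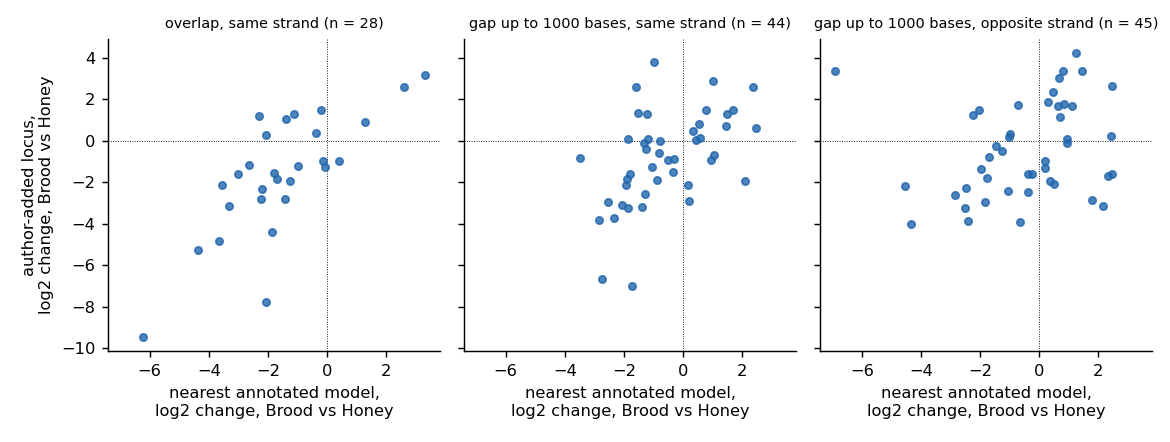
Log2 change for Brood vs Honey of author-added loci (y axis) against that of their nearest annotated model (x axis), 1 point per locus, by distance and strand. The points rise together most clearly among the 28 loci that overlap a model on the same strand. The lowest point there is Bee_newGene_1503, at 0 in Brood, whose fitted change depends on the prior count.

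Author-added loci also lay beside each other, and the changes of close pairs on a strand were compared. Of the 356, 114 fell into 51 runs with gaps of 10000 bases or less, and the largest run held 4. There were 28 neighbouring pairs on the same strand with a gap of up to 1000 bases, 18 of them with both loci tested. Across these 18 pairs Pearson's correlation of log2 changes was 0.80 in Brood vs Pollen, 0.76 in Pollen vs Honey and 0.76 in Brood vs Honey. Spearman's correlation was 0.75, 0.50 and 0.74 in the same order, and the median absolute difference within a pair was 0.72, 0.43 and 0.86 on the log2 scale. In Brood vs Pollen both members lay below 0 in 12 pairs and above 0 in 4. Of the 289 tested loci, 204 lay below 0 and 85 above in this comparison. Some loci, such as Bee_newGene_327, belong to more than 1 pair. Bee_newGene_1080 and Bee_newGene_1081 on linkage group 8 differed in direction, with 1.45 and -1.22 for Brood vs Honey. Whether pairs are parts of 1 transcript was not tested. Bee_newGene_1659 and Bee_newGene_1660 lie 127 bases apart on linkage group 14. Bee_newGene_1659 had 2 and 3 fragments in Brood, 39 and 34 in Pollen, and 67 and 52 in Honey. Bee_newGene_1660 had 9 and 12 fragments in Brood, 101 and 69 in Pollen, and 161 and 119 in Honey. Both were lower in Brood than in Pollen, with log2 changes of -3.25 and -2.43 (edgeR adjusted p = 0.000805 and 0.00076). Bee_newGene_1748 starts 107 bases from Bee_newGene_1747 on the same strand, with 182 and 126 fragments in Brood, 446 and 445 in Pollen, and 2301 and 805 in Honey. Its log2 change for Brood vs Honey was -1.87 (SE 0.35; edgeR adjusted p = 0.000849), beside -3.06 for Bee_newGene_1747, and the difference between them was not tested. With the length trend removed, this call of Bee_newGene_1748 was lost (log2 change -0.64, edgeR adjusted p = 0.168). For Brood vs Pollen the log2 change of Bee_newGene_1748 was -0.93 (edgeR adjusted p = 0.0428), a call lost without Brood 2, Pollen 1 or Pollen 2.

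A further such stretch lay on the plus strand of linkage group 2, where Bee_newGene_326, Bee_newGene_327 and Bee_newGene_328 span 12797876 to 12828416 with gaps of 140 and 545 bases. Bee_newGene_326 had 4 and 7 fragments in Brood, 83 and 118 in Pollen, and 74 and 81 in Honey. Bee_newGene_327 had 9 and 16 fragments in Brood, 122 and 190 in Pollen, and 100 and 90 in Honey. Bee_newGene_328, with 7467 bases the third longest locus, had 96 and 89 fragments in Brood, 677 and 964 in Pollen, and 639 and 601 in Honey. All 3 were highest in Pollen and lowest in Brood on the CPM scale with no overlap. Their log2 changes for Brood vs Pollen were -3.58, -3.04 and -2.54 (SE 0.49, 0.40 and 0.36). Those for Pollen vs Honey were 1.01, 1.38 and 1.05, of which only that of Bee_newGene_327 was called. Bee_newGene_329, which starts 10764 bases beyond on the same strand and overlaps gene2243, was instead highest in Honey.

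**Figure D5:**
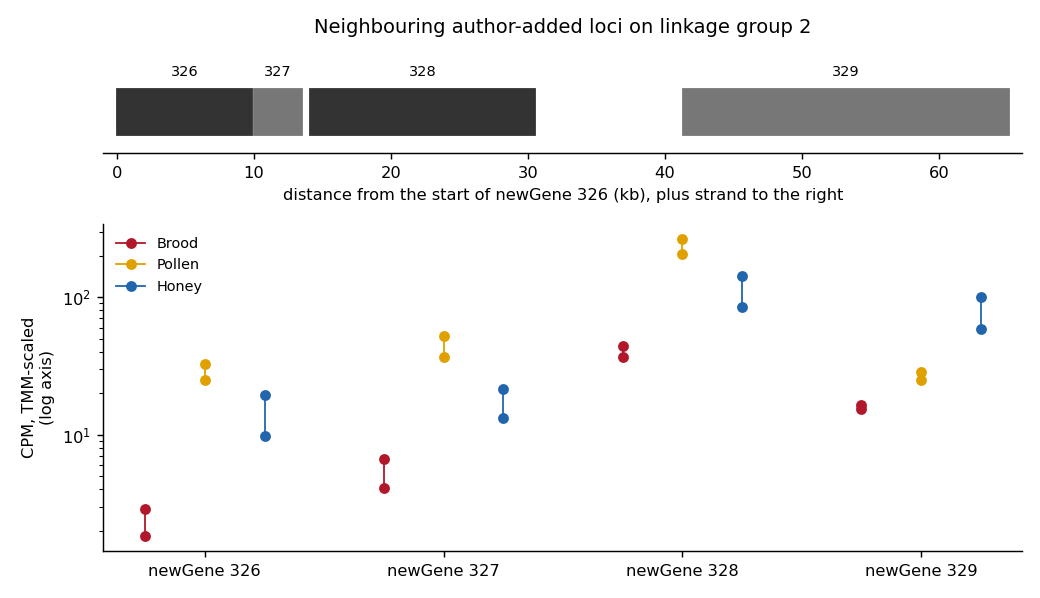
Positions of 4 author-added loci on the plus strand of linkage group 2, in kb from the start of Bee_newGene_326 (top), and their TMM-scaled CPM per library (bottom, log axis, 2 points per group). Bee_newGene_326, Bee_newGene_327 and Bee_newGene_328 are highest in Pollen and Bee_newGene_329 in Honey, and all 4 are lowest in Brood.

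The run of 4 lay on the minus strand of linkage group 14 from 4519879 to 4530320, and its loci differed from each other. Bee_newGene_1650 had 0 and 4 fragments in Brood, 11 and 10 in Pollen, and 46 and 24 in Honey. Bee_newGene_1651 and Bee_newGene_1652 had 0 to 17 fragments in any library and were not tested. Bee_newGene_1653, at the end of the run, had 33 and 47 fragments in Brood, 25 and 16 in Pollen, and 40 and 23 in Honey. Its log2 change for Brood vs Honey was 1.68 (SE 0.38; edgeR adjusted p = 0.00258). With library totals it was 0.34 and the call was lost (edgeR adjusted p = 0.529). The log2 change of Bee_newGene_1650 for Brood vs Honey was -2.73 (edgeR adjusted p = 0.00887). That call was lost without Brood 1, where the log2 change was -1.82. Of the 5 shortest loci, 4 had few fragments. Bee_newGene_1502, with 184 bases, had 2 fragments in Pollen 1, 2 in Honey 1 and 0 elsewhere, the lowest total of all. Bee_newGene_828, with 228 bases, had 17 and 13 fragments in Brood, 3 and 5 in Pollen, and 3 and 4 in Honey, and its log2 change for Brood vs Honey was 3.35 (SE 0.65; edgeR adjusted p = 0.000987). Of the other 3 of the 5 shortest, Bee_newGene_1974 was 3.29 higher on the log2 scale (edgeR adjusted p = 0.00245), and Bee_newGene_861 and Bee_newGene_863 were not called in any comparison. Bee_newGene_863, with 283 bases, was the exception in level, with 58 and 51 fragments in Brood, 146 and 93 in Pollen, and 174 and 119 in Honey. The calls of Bee_newGene_828 and Bee_newGene_1974 were lost with the length trend removed (edgeR adjusted p = 0.0799 and 0.105). These 2 loci had 10 or more fragments only in Brood. They thus passed the filter only through the group where they were higher, which limits what their adjusted p can say. The 67 loci that were not tested had at most 72 fragments in all 6 libraries together.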

How the data were processed

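Each deposited file held 1 library, with a raw count of fragments, a normalized count, an FPKM value, a length and a position per model, per the file headers. The authors' aligner, counter, use of strand and name of the build are not given in the sources used here. A deposited normalized count, a signal value, equalled the raw count times 1 factor per library within 0.02 fragments for 67.4% to 77.0% of the author-added loci. For the others the raw count was higher, by at most about 1 fragment. The deposited FPKM values were used only in an alternative.

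All models were filtered together (filterByExpr, minimum count 10; 6943 kept), scaled by TMM and fitted as 3 group means (residual degrees of freedom: 3) by edgeR 4.0.16 in R 4.3.3 (glmQLFit and glmQLFTest, two-sided). P-values were adjusted by Benjamini-Hochberg over all 6943 models. Every adjusted p is from this fit unless another setting, limma 3.58.1 or DESeq2 1.42.0 is named. Other edgeR settings, such as library totals, the length trend removed or a library left out, were fitted anew. Their p-values were adjusted over the models that each one tested. The SE of a log2 change is its absolute value over the square root of the quasi-likelihood F. A count of 3 fragments, the limit that a count of 0 allows, was 0.395 to 1.37 CPM, and covers counting error only. The scripts were tested on simulated data. Distance is the difference of the nearest coordinates, 0 where models overlap. No column belonged to other samples.

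Loci were named by rule: the 8 most abundant, the 5 largest rises and falls per comparison among calls with no overlap and at least 50 fragments in both libraries of the higher group, the largest run, the 5 longest and shortest, and the 3 most distant. Of the 5 longest, 3 are also among the largest falls. Bee_newGene_611, Bee_newGene_850 and the pairs of neighbouring loci were chosen after their values were seen, as were the loci in the closing section. The members, classes and rules were chosen with earlier results of these data known. Each library was treated as a separate colony, and the sample titles give only the group and a replicate number.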

Additional observations from a re-analysis of the deposited data

How the results depend on the processing

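The number of author-added loci called was 143 in Brood vs Pollen, 23 in Pollen vs Honey and 169 in Brood vs Honey. It stayed within 1.5 times of these under every other setting run, except for Pollen vs Honey, where it was 98 with library totals, 15 with DESeq2, 48 without a filter (more loci tested) and 10 with limma on log2(FPKM + 0.1). With 1 library left out it was 108 to 147 in Brood vs Pollen, 7 to 29 in Pollen vs Honey (7 without Honey 1, 11 without Honey 2) and 138 to 186 in Brood vs Honey. A fit with a block for the replicate number called 144, 25 and 169, and the median for Brood vs Pollen was -0.86. The numbers only name the colonies, and deviations of same-numbered libraries correlated at 0.152 between Brood and Pollen, 0.040 between Brood and Honey and -0.094 between Pollen and Honey. The cause of the shifts was not tested. Median log2 changes kept their sign in all settings. For Brood vs Pollen (-0.89) they were -1.33 with library totals, -1.004 without a filter, -0.52 and -0.83 with limma on log2(FPKM + 1) and log2(FPKM + 0.1), and -1.05 with the length trend removed. In Pollen vs Honey (-0.12) they were -1.01 with library totals, -0.23 without a filter and -0.23 with the length trend removed. In Brood vs Honey (-0.95) they were -1.01 with RLE factors, -2.28 with library totals, -1.19 without a filter, -0.69 and -1.11 with limma, and -1.10 with the length trend removed. Without single libraries they ran from -1.08 to -0.81, -0.20 to -0.092 and -1.14 to -0.85. Within 500 or 5000 bases of a listed model lay 37.1% or 77.8% of loci, and 28.7% lay within 1000 bases on the same strand. With 10 fragments as the limit, 45.6% of loci were detected in Brood, 65.6% in Pollen and 79.2% in Honey. Without the locus with most fragments the share of fragments in Brood was 0.325%.

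Of the named calls and the values of the 8 most abundant loci, 1031 were unchanged in call and direction over the alternatives, 87 lost the threshold, 12 gained it and 18 turned. For Brood vs Pollen, Bee_newGene_1825 (-0.02) was 0.00064 and 0.00053 with limma, 1.09 with the length trend removed (edgeR adjusted p = 0.0353) and 0.15 without Brood 2. With the length trend removed, Bee_newGene_1095 was 0.78, Bee_newGene_1748 0.13, Bee_newGene_332 0.31 and Bee_newGene_980 -0.12. In Pollen vs Honey, Bee_newGene_1095 was -0.20 with library totals, and Bee_newGene_840 ran from -0.44 to 0.011 with 1 library left out. In Brood vs Honey, Bee_newGene_1095 (0.07) was -1.27 with library totals, -0.012 without a filter, and -0.10 to 0.22 with 1 library left out. Bee_newGene_980 was -0.51 with library totals and -0.48 with the length trend removed, where Bee_newGene_1825 was 0.98 and Bee_newGene_328 0.23.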

Other observations

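A few loci differed far more within a group than between groups. Bee_newGene_985, on linkage group 7 at 11438564 to 11442286 inside gene6142 on the same strand, had 0 and 0 fragments in Brood, 51 and 0 in Pollen, and 94 and 2 in Honey. Bee_newGene_1663, on linkage group 14 at 8775675 to 8778026, had 15 and 12 fragments in Brood, 24 and 0 in Pollen, and 58 and 0 in Honey, so it had fragments in replicate 1 and none in replicate 2 of both groups with caged queens. Of the 164 loci with 50 or more fragments in a Honey library, these 2 were more than 10-fold apart between the Honey libraries, against 7 of 4523 annotated models. By the same rule it was 1 of 108 loci in Pollen, Bee_newGene_985, against 12 of 3387 annotated models. In Brood it was 0 of 55 loci, against 9 of 2690 annotated models.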
